A study of Mus musculus with 24 samples.

Results

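The transcripts that mark the epithelium of the choroid plexus, *Ttr*, *Enpp2*, *Folr1*, *Clic6*, *Otx2*, *Kl*, *Sgms2* and *Prlr*, were followed as a group of 8 genes in *Cep135*-mutant and control mouse embryos and in neurospheres grown from them. They were 8 of the 54658 genes in the table and were chosen from the levels seen in these libraries, so that their levels and differences are descriptions without a test. RNA came from dorsal telencephalon of *Cep135*(Δ8/Δ8) embryos, labelled null or (-/-), and of *Cep135*(+/+) embryos from crosses of heterozygous mice. At E11.5 the mutants are called A, B and C and the controls D, E and F, and at E14.5 the mutants are numbered 1, 2 and 6 and the controls 3, 4 and 5. Progenitors from the cortices of the same 6 E14.5 embryos were also cultured for 12 and 24 hours to form incipient neurospheres, which gave 24 libraries with 3 embryos in each group. The Δ8 allele is a small germline deletion in the second exon of *Cep135*, a gene of centriole assembly, and acts in all cells of the embryo. In bulk samples of this kind, fewer choroid plexus cells and less RNA per cell cannot be told apart.

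The choroid plexus is a folded epithelium over a vascular core that hangs into the brain ventricles and secretes cerebrospinal fluid. In the telencephalon it forms at the dorsal midline, beside the cortical hem, a source of WNT and BMP signals that borders the medial cortex, so a dissected dorsal telencephalon may carry part of it. Its cells become postmitotic early, express the homeodomain factor OTX2, and deliver carriers, enzymes and vitamins to the fluid: transthyretin (*Ttr*) binds thyroxine and the retinol-binding protein, autotaxin (*Enpp2*) makes lysophosphatidic acid, and folate receptor alpha (*Folr1*) carries folate across the epithelium.

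The only regulator among the 8 genes is *Otx2* (ENSMUSG00000021848, chr14:48657677-48673819 of GRCm38, minus strand). The OTX2 homeodomain is known to bind TAATCC, and TAATTA is a core bound by many homeodomains. RefSeq start windows, each running from 250 bases before to 50 bases after an annotated start, were found for *Otx2* (4 windows), *Sgms2* (6), *Prlr* (3) and *Kl* (1). Both words were searched on both strands and counted separately where they overlapped. TAATCC stood in 7.06% and TAATTA in 5.29% of all 32851 windows of the table. Of the 4 windows of *Otx2*, 1 held TAATCC and 2 held TAATTA, while none of the windows of *Sgms2*, *Prlr* and *Kl* held either. These letters are a description of the windows, and reads from 3′ ends do not tell which start was used. The *Otx2* window with the most matches is shown beside one without any, both 5′ to 3′ on the minus strand of GRCm38.p6, with matches on either strand in capitals (GGATTA is TAATCC read on the other strand).
*Otx2* at chr14:48665060-48665359: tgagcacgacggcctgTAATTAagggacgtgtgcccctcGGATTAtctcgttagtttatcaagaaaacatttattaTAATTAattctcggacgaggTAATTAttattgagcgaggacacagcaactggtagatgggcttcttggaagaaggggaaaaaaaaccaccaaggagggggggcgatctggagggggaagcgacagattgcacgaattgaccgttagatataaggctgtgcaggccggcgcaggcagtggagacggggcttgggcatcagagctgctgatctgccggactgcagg
*Otx2* at chr14:48667459-48667758: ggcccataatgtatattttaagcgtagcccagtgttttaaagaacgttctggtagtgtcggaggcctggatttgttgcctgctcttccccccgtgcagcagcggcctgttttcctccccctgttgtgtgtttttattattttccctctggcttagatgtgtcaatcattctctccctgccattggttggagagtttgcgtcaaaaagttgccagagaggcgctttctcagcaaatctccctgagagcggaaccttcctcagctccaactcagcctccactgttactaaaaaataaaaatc

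The values are normalized read counts, that is reads counted per gene and divided by 1 size factor per library, from libraries primed at 3′ ends. The libraries held 4732781 to 11645213 reads on genes. *Cep135* itself ranged from 173 to 336 in mutants and from 171 to 375 in controls, and reads from the 3′ end do not cover the deletion, so this level does not check the genotype. The label of the mutant 6 cortex gives E14.5 in its title and E11.5 in its description. It was taken as E14.5, and the differences of the 8 genes that moved most with it are also given without it. Its *Otx2* level of 157 and its sum of 14 hem genes of 1246 lay among those of the other E14.5 cortices. The lowest E11.5 cortices stood at 649 and 3027. *Xist* and Y-linked transcripts marked mutants A, C, 1 and 2 and control E as female and the other embryos as male, so that at E14.5 and in culture only mutant 6 shares its sex with the controls. In the 24-hour cultures the mutants had 7903426 to 11645213 reads and the controls 4732781 to 5709443, without overlap, and *Gm42418*, an RNA gene with ribosomal sequence, took 20.5% to 23% of the values in mutants and 6.26% to 13.9% in controls. All 7 markers of dorsal telencephalon were above 0 in every library. The E11.5 and E14.5 libraries share no title prefix in their labels, so differences between the ages and between prefixes cannot be told apart.

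*Ttr* (ENSMUSG00000061808, chromosome 18, 20665280 to 20674321, plus strand) had the widest range of the 8 genes. The E11.5 level was 72.9, 113 and 160 normalized reads in the mutants (A, B, C) and 66.5, 118 and 128 in the controls (D, E, F). In the E14.5 cortex it stood at 7339, 5991 and 681 in mutants 1, 2 and 6 and at 4899, 5083 and 3055 in controls 3, 4 and 5. All 6 E14.5 cortices were above all 6 E11.5 cortices, with a log2 difference of 5.10 (SE 0.44) between the ages, or 5.62 without the cortex of mutant 6, while at each age the mutants and controls overlapped. Within E14.5, mutant 6 was the lowest library, below every control. After 12 hours in culture *Ttr* stood at 8512, 15693 and 4507 in mutants 1, 2 and 6 and at 1919, 3608 and 971 in controls 3, 4 and 5. After 24 hours it stood at 7142, 16344 and 4826 in the mutants and at 1592, 3509 and 764 in the controls. The groups did not overlap at either time, and the embryos stood in the same order at both, with mutant 2 highest, then mutants 1 and 6, then controls 4, 3 and 5. The neighbours across the groups, mutant 6 and control 4, were closer to each other at both times than the SD of either group. The mutants averaged 9571 ± 5667 (SD, n = 3) at 12 hours and the controls 2166 ± 1336 (SD, n = 3), a log2 difference of 2.16 (SE 0.437), and the difference at 24 hours was 2.35 (SE 0.446).

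**Figure D1:**
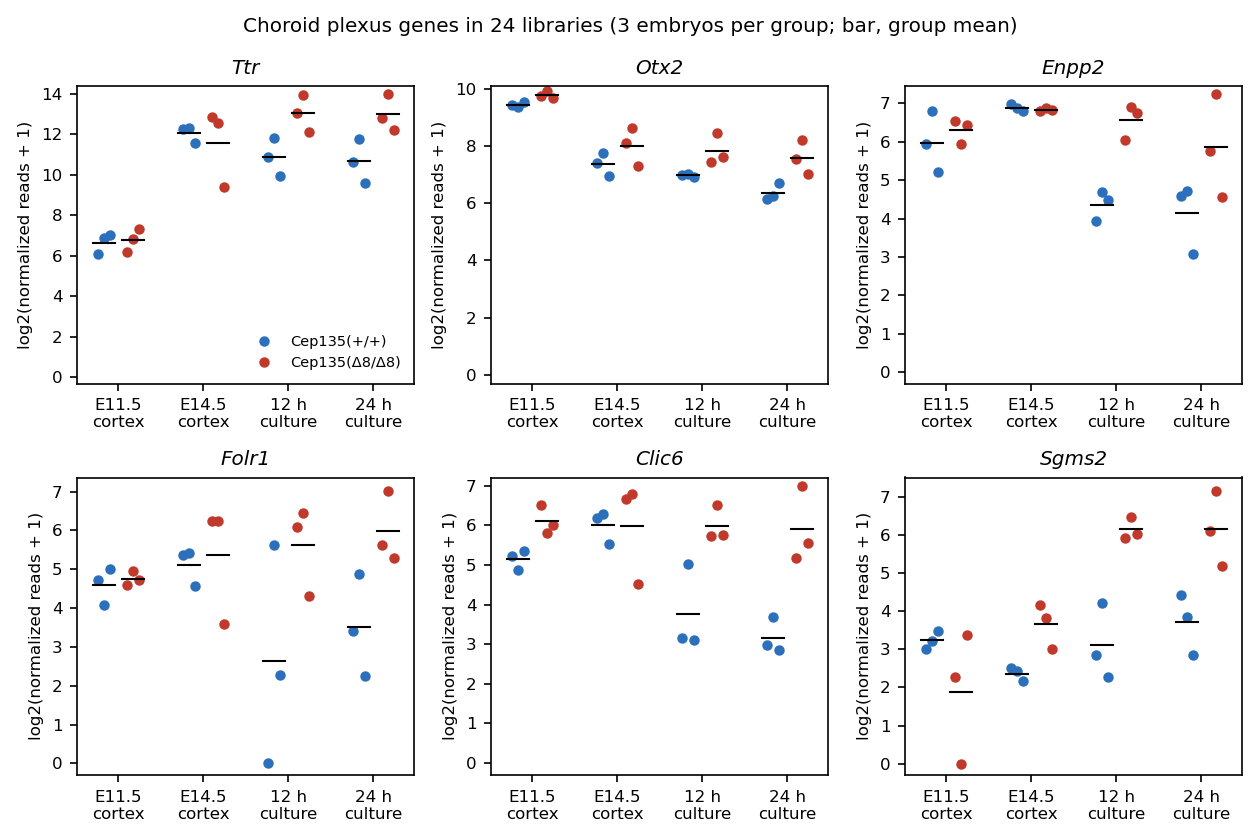
Each point is 1 library, with log2(normalized reads + 1) on the vertical axis and the 4 sets of libraries on the horizontal axis; blue points are *Cep135*(+/+), red points *Cep135*(Δ8/Δ8), in order of embryo name, and bars mark group means of 3 embryos. *Ttr* stood between 66.5 and 160 normalized reads at E11.5 and reached 16344 in culture, *Otx2* was highest at E11.5, and in both cultures the red points of most genes lay above the blue ones.

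*Otx2* had the opposite course with age, and which cells of these bulk samples held its transcripts was not tested. The E11.5 level was 863, 955 and 805 in the mutants (A, B, C) and 681, 649 and 746 in the controls (D, E, F). In the E14.5 cortex it stood at 271, 396 and 157 in mutants 1, 2 and 6 and at 166, 216 and 121 in controls 3, 4 and 5. Every E11.5 cortex was above every E14.5 cortex, and the log2 difference of E14.5 over E11.5 was -1.92 (SE 0.183). The mutants were all above the controls at E11.5, by 0.34 (SE 0.112) on the log2 scale, and overlapped with them at E14.5. In culture *Otx2* stood at 174, 346 and 192 in mutants and 124, 128 and 120 in controls at 12 hours, and at 186, 292 and 130 in mutants and 69.6, 74.1 and 104 in controls at 24 hours. The groups did not overlap at either time, and the log2 differences were 0.86 (SE 0.29) and 1.23 (SE 0.28), smaller than those of *Ttr*. The same strand holds *Gm49154* over part of *Otx2*, and the gene to which reads from that overlap belong is uncertain.

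*Folr1* (ENSMUSG00000001827, chromosome 7, 101858331 to 101870788, minus strand) and *Clic6* (ENSMUSG00000022949, chromosome 16, 92485736 to 92541243, plus strand), which encodes an intracellular chloride channel protein, are the carrier and the channel of the group. *Clic6* shares part of its strand with *2410124H12Rik*. *Folr1* stood at 23.2, 30.1 and 25.2 in E11.5 mutants and 25.2, 15.9 and 31.1 in E11.5 controls, and at 74.5, 75.1 and 11 in E14.5 mutants and 40, 41.4 and 22.7 in E14.5 controls. *Clic6* stood at 89.7, 54.7 and 63.5 in E11.5 mutants and 36.3, 28.4 and 39.6 in E11.5 controls, and at 100, 110 and 21.9 in E14.5 mutants and 71.8, 77.7 and 45.3 in E14.5 controls. For both genes the E14.5 cortices of mutants 1 and 2 were above all controls and that of mutant 6 was below them, the pattern seen for *Ttr*. *Clic6* was higher in every mutant than in every control at E11.5, by 0.96 (SE 0.245) on the log2 scale, and *Folr1* was not (0.16, SE 0.311). At 12 hours *Folr1* stood at 67.3, 86.3 and 18.8 in mutants 1, 2 and 6 and at 0, 48.1 and 3.8 in controls 3, 4 and 5, and the groups overlapped because control 4 was above mutant 6. At 24 hours *Folr1* stood at 48.7, 128 and 38.4 in mutants and 9.56, 28.6 and 3.75 in controls, without overlap. *Clic6* stood at 51.7, 90.5 and 52.8 in mutants and 7.87, 31.7 and 7.59 in controls at 12 hours, and at 35.1, 127 and 46.3 against 6.83, 11.8 and 6.25 at 24 hours, without overlap at either time. The log2 difference of *Clic6* was 2.23 (SE 0.633) at 12 hours and 2.74 (SE 0.524) at 24 hours. That of *Folr1* was 2.99 (SE 1.19) at 12 hours, where it rests on the 0 of control 3 and was 1.68 without that library and 4.49 without control 4, and 2.47 (SE 0.622) at 24 hours.

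The enzymes of the group are *Enpp2* (ENSMUSG00000022425, chromosome 15, 54838901 to 54952892, minus strand) and *Sgms2* (ENSMUSG00000050931, chromosome 3, 131318985 to 131491411, minus strand), a sphingomyelin synthase of the plasma membrane. *Enpp2* varied little at E14.5, at 110, 116 and 113 in mutants and 125, 118 and 111 in controls, after 92.9, 60.2 and 85.1 in mutants and 60.5, 110 and 35.8 in controls at E11.5. Unlike *Ttr*, *Folr1* and *Clic6*, its level in the mutant 6 cortex lay between those of mutants 1 and 2. At 12 hours it stood at 65.3, 120 and 107 in mutants and at 14.2, 24.7 and 21.3 in controls. The controls were thus at 0.121 to 0.216 times the level in their own cortices, on the scale of reads plus 1, and the mutants at 0.6 to 1.03 times. At 24 hours mutants stood at 53, 151 and 22.7 and controls at 23.2, 25.3 and 7.5, where mutant 6 was below 2 of the controls and the groups overlapped. *Sgms2* was near the limit of counting in the cortices, at 0 to 9.37 in E11.5 mutants and 7.05 to 10.1 in E11.5 controls, and at 16.9, 13.2 and 7.05 in E14.5 mutants and 4.71, 4.36 and 3.49 in E14.5 controls. In culture it stood at 60.4, 88.4 and 64.5 in mutants and 6.29, 17.6 and 3.8 in controls at 12 hours, and at 68.1, 142 and 35.8 against 20.5, 13.5 and 6.25 at 24 hours. Every mutant was above every control in the E14.5 cortex and at both times in culture, and the log2 difference was 3.04 (SE 0.646) at 12 hours and 2.44 (SE 0.527) at 24 hours.

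The receptors *Kl* (ENSMUSG00000058488, chromosome 5, 150952607 to 150993817, plus strand), the FGF23 coreceptor Klotho, and *Prlr* (ENSMUSG00000005268, chromosome 15, 10177238 to 10349180, plus strand), the prolactin receptor, were hardly detected. *Kl* was above 0 in 8 of 24 libraries and reached 2.62 normalized reads. *Prlr* was above 0 in 21 libraries and reached 11.8, and it shares part of its strand with *Gm21973*. A mean of 10 normalized reads, the minimum for a test, was met by neither gene in any set, so that 5 of the 8 genes stood above it in the cortices and 6, with *Sgms2*, in the cultures. No difference between groups was detectable for *Kl* or *Prlr* at this depth.

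The mutants as a group were compared with controls in each set to ask how far the 8 genes depended on genotype. In the E11.5 cortices 2 of the 8 genes, *Clic6* and *Otx2*, were higher in every mutant than in every control, in the E14.5 cortices 1 gene (*Sgms2*), and in each culture 5 genes. Over all genes tested, every mutant was above every control in 7.16% of genes in the E11.5 cortices and 7.02% in the E14.5 cortices, and in 5.09% and 7.15% in the 12- and 24-hour cultures, and since these contrasts were seen when the 8 genes were chosen, nothing is read from their counts. The E14.5 differences moved with the cortex of mutant 6. For *Ttr* the log2 difference was -0.45 (SE 0.679) with it and 0.65 without it, for *Clic6* -0.01 (SE 0.5) and 0.73, and for *Folr1* 0.25 (SE 0.601) and 1.13.  In culture, mutant 6 was higher in *Ttr* than each of the 3 controls of its own sex at both times, while for *Enpp2* this held at 12 hours and not at 24 hours. With a term for sex, which leaves only mutant 6 to compare with the controls, the log2 difference of *Ttr* was -2.64 in the E14.5 cortex, 1.26 at 12 hours and 1.57 at 24 hours. That of *Folr1* was -1.53 in the E14.5 cortex and 1.68 at 12 hours, that of *Clic6* was -1.49 in the E14.5 cortex, and those of *Otx2* and *Sgms2* there were -0.06 and 0.64 (0.65 and 1.30 without the term). At 24 hours that of *Folr1* was 1.79, of *Enpp2* was 0.43, of *Otx2* 0.67 and of *Sgms2* 1.49.

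**Figure D2:**
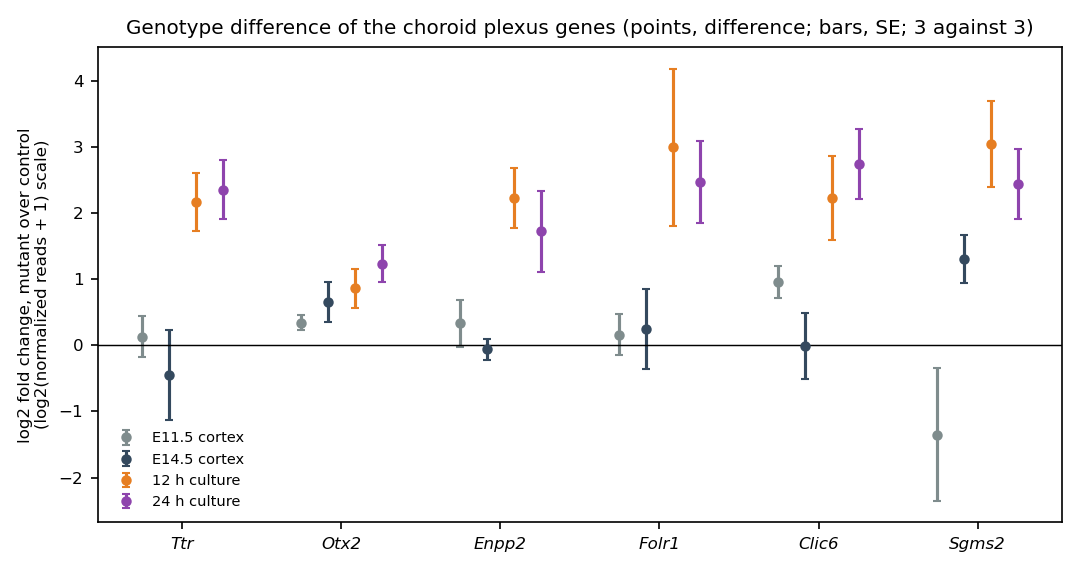
The difference of mutants from controls as a log2 fold change on the scale of log2(normalized reads + 1) is plotted for the 6 genes above the detection limit, in each set of 3 mutants and 3 controls; points are differences and bars standard errors, from limma except for *Sgms2* in the cortices, where they are from an ordinary linear model. In culture the differences lay between 0.86 and 3.04, and in the cortices between -1.35 and 1.30.

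Because the cultures came from the E14.5 embryos, each embryo could be followed from cortex to culture. From cortex to 12 hours *Ttr* was higher in all 3 mutants, by 0.214, 1.39 and 2.72 on the log2 scale in mutants 1, 2 and 6, and lower in all 3 controls, by -1.35, -0.494 and -1.65 in controls 3, 4 and 5. The largest step was in mutant 6, the embryo whose cortex was lowest. Such a split, up in 3 mutants and down in 3 controls, was seen in 0.654% of the 13601 genes tested. *Clic6* was lower at 12 hours than in the cortex in 5 of the 6 embryos and higher only in mutant 6, by 1.23, and *Sgms2* was higher at 12 hours in all 6 embryos, by 1.78 to 3.02 in mutants and 0.096 to 1.80 in controls. From 12 to 24 hours *Ttr* moved by no more than 0.346 in any embryo.

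**Figure D3:**
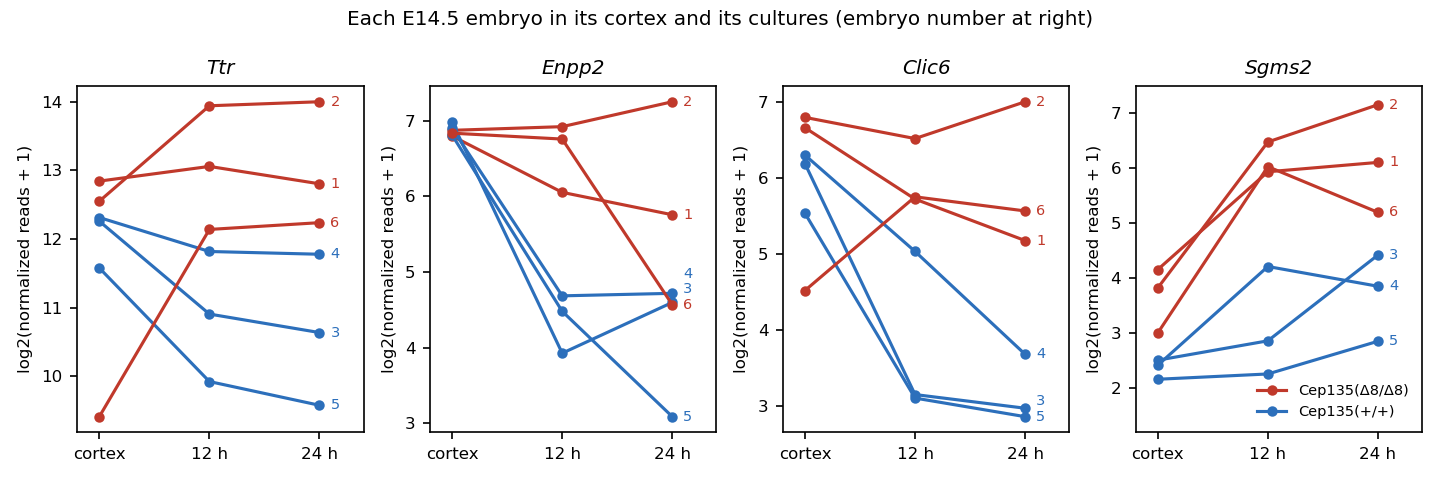
Lines join the cortex, the 12-hour culture and the 24-hour culture of each E14.5 embryo, with log2(normalized reads + 1) on the vertical axis; red lines are mutants 1, 2 and 6 and blue lines controls 3, 4 and 5. *Ttr* lines of controls run down by 0.494 to 1.65 from cortex to 12 hours and those of mutants run up, and *Enpp2* lines start together in the cortex and part at 12 hours.

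The 8 genes were also compared with each other across the 24 libraries. After the mean of each set was subtracted, the Pearson correlation among the 6 detected genes ranged from 0.624 (*Otx2* and *Sgms2*) to 0.88 (*Ttr* and *Clic6*); the libraries share embryos, sets and size factors, and no test was made. Without that subtraction *Ttr* and *Otx2* had a correlation of -0.604 across ages and cultures together. The mean of the 8 log2 values served as a score. Of 13672 other genes, the 10 with the highest correlation with this score within sets were *Sulf1* (0.927), *Slc16a10* (0.922), *Acadm* (0.89), *Sostdc1* (0.887), *Car14* (0.869), *Aqp1* (0.867), *Dab2* (0.863), *Slc5a3* (0.848), *1500015O10Rik* (0.842) and *Fam84b* (0.835). Of these, 4 (*Sostdc1*, *Car14*, *Aqp1* and *1500015O10Rik*) belong to a list of 32 other choroid plexus genes. The 19 genes of that list with a mean of at least 10 had a median correlation of 0.626, against -0.0106 for all genes ranked. Genotype was not subtracted, so all these correlations, also those among the 6 detected genes, hold the difference of mutants from controls. That difference was seen when the 8 genes were chosen, and a gene higher in the mutant cultures follows the score for that reason alone. The values are thus a description only.

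That list of 32 genes holds transporters, epithelial proteins, secreted proteins and genes of multiciliated cells that the choroid plexus is known to express, and its members were tested in the fit across all genes (limma, Benjamini-Hochberg adjustment). This list and the lists of partner and hem genes below were made with earlier results of these data known. Their tests are thus not independent of these data. Between 31 and 32 of the 32 were above 0 in each E14.5 control, and between 23 and 25 in each 24-hour control. Mean levels were higher in mutants for 25 of the 32 genes and lower for 6 in the E11.5 cortices, and higher for 17 and lower for 14 in the E14.5 cortices. Of the genes tested, 14 of 16 and 10 of 23 had higher mean log2 values in mutants, and 1 and 3 of those tested reached the minimum mean only through the mutants. The limma test called 0 of them at either age, where it called 0.0149% of all genes at E11.5 and 0.0736% at E14.5. Unadjusted p-values under 0.05 were found for 3 genes in the E11.5 and 0 in the E14.5 cortices, and edgeR and DESeq2 also called 0 at E14.5. Over all genes tested, limma gave such p-values for 991 of 13406 at E11.5 and 1236 of 13583 at E14.5. With age as a term, 0 of 18 in the 12 cortices were called, 1 at an unadjusted p under 0.05, where 0.139% of all genes were called. An unadjusted p under 0.05 was found there for 1189 of all 13650 genes (limma).

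In the 12-hour cultures the mean level was higher in mutants for 23 of the 32 genes and lower for 7. Among the 7 were *Slc4a5*, at a mean of 15.7 in controls and 2.68 in mutants, and *Cldn3*, at 12.3 and 4.79. Both were under the minimum mean and not tested, and their groups overlapped. Of the 19 genes tested 17 had higher mean log2 values in mutants, with a median difference of 1.12 against -0.02 for all genes. Of these, *1500015O10Rik*, *Calml4* and *Ccno* averaged 7.8, 6.12 and 3.8 in controls and reached the minimum mean of 10 only through the mutants, so that they entered these counts because they were high there. The limma test called 0 of the 19 and 0% of all 13389 genes, while 9 of the 19 and 650 of all genes had an unadjusted p under 0.05. DESeq2 on whole reads called 1 of them and edgeR 0. The mutants were all above the controls for 7 genes (*Car14*, *Sostdc1*, *1500015O10Rik*, *Igfbp2*, *Calml4*, *Col8a1* and *Ccno*) and all below for 1, *Slc29a4*, a monoamine transporter. Over all genes tested, every mutant was above every control in 5.09%, and the share below was not counted. The 7 include the genes that entered through the mutants. *Col8a1*, a short-chain collagen, stood at 169, 584 and 153 in mutants and 37.8, 52.8 and 12.1 in controls. In the 24-hour cultures the mean level was higher in mutants for 28 of the 32 genes and lower for 4. Of the 17 tested 14 had higher mean log2 values in mutants, with a median difference of 1.01 against -0.01 for all genes. The mutants were all above the controls for 7 of the 17, and for 7.15% of all genes tested. *1500015O10Rik* and *Car12* averaged 1.47 and 3.28 in controls and likewise entered through the mutants. The gene that passed was *Sostdc1*, a secreted antagonist of BMP and WNT signals, while 0.120% of all genes were called higher and 0.150% lower. *Sostdc1* stood at 221, 1115 and 218 in mutants 1, 2 and 6 and at 53.3, 92.7 and 42.5 in controls 3, 4 and 5, with mutant 2 far above the rest and no overlap. Its log2 fold change was 2.65 (SE 0.483, adjusted p = 0.0407, limma). The call was lost in 7 of 17 alternatives, with an adjusted p of 0.0525 without mutant 6, 0.115 without control 3, 0.116 without control 5 and 0.316 with a term for sex. *1500015O10Rik*, which encodes the secreted peptide augurin, stood at 15, 60.7 and 21 in mutants and 2.73, 1.69 and 0 in controls, and did not pass (adjusted p = 0.0936, limma).

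**Figure D4:**
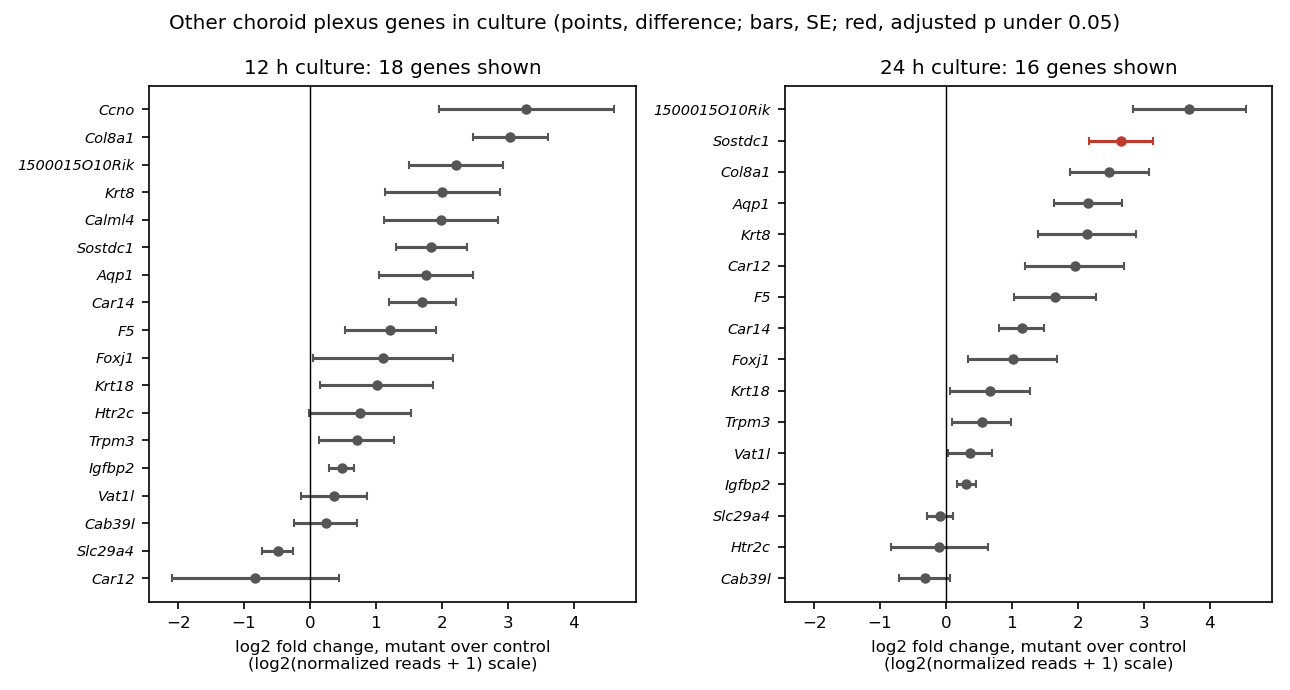
The difference of mutants from controls as a log2 fold change, on the scale of log2(normalized reads + 1), with its standard error is plotted for 18 of the other choroid plexus genes tested at 12 hours and 16 at 24 hours, ordered by size. Of those plotted 16 and 13 lie above 0, and the only one with an adjusted p under 0.05 is *Sostdc1* at 24 hours, at 2.65.

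Whether the genotype difference of this list at 12 hours exceeded that in the cortices of the same embryos was tested as an interaction with the embryo as a block, a test added after the data had been seen. It called 0 of 21 genes and 0.0221% of all genes, with 17 of the 21 positive and 8 at an unadjusted p under 0.05 (limma). Of all 13601 genes tested, 765 had such a p. DESeq2 called 1 and edgeR 0, and without control 5 limma called 1.

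Between the ages 12 of the 18 genes of the list that were tested changed, 5 higher at E14.5 and 7 lower, where 23.8% of all genes tested were called higher and 29.3% lower. Among those higher at E14.5 were *Htr2c*, a serotonin receptor (log2 fold change 2.89, SE 0.62), *Calml4* (2.04), the cation channel *Trpm3* (1.40) and *Slc29a4* (0.98). Lower at E14.5 were *Krt8* (-1.37) and *Krt18* (-1.25), the keratins of simple epithelia, the carbonic anhydrase *Car14* (-1.22), *Col8a1* (-1.25), *Igfbp2* (-1.12), *Ccno* (-0.97) and *Cab39l* (-0.55). *Htr2c* stood at 0 to 7.81 normalized reads at E11.5, and at E14.5 at 58.7, 44.2 and 3.13 in mutants 1, 2 and 6 and at 22.4, 32.7 and 13.1 in controls. Mutant 6 was again the lowest at E14.5, and without it the log2 fold change of *Htr2c* was 3.47. With all 24 libraries in one fit the calls of *Krt8*, *Krt18*, *Ccno* and *Cab39l* were lost (adjusted p of 0.0722 to 0.125, limma). The minimum mean left genes near 0 at E11.5 untested, so the counts by direction do not describe the whole list. *Kcne2* went from a mean of 0 at E11.5 to 12.2 at E14.5, *Slc22a8* from 1.36 to 16 and *1500015O10Rik* from 0.844 to 17.5, each without overlap. Not every untested gene rose, and *Steap1* went from 9.03 to 4.07.

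From cortex to 12 hours, 5 of the 21 genes of the list that were tested changed. Over both genotypes together, *Col8a1* (2.51, SE 0.63) and *F5*, coagulation factor V (1.53, SE 0.53), rose, where 14.1% of all genes were called higher, and 3 fell, among them *Vat1l* (-1.09) and *Trpm3* (-0.88), where 16.1% were called lower. In mutants 1, 2 and 6 *Col8a1* changed by 3.79, 4.73 and 4.41, and *F5* by 2.02, 1.65 and 3.82. In controls 3, 4 and 5 *Col8a1* changed by 1.9, 1.55 and -1.34, and *F5* by -0.144, 1.93 and -0.122. The calls of *F5* and *Trpm3* were lost on leaving out any of 9 and 7 of the 12 libraries, with an adjusted p of up to 0.0855 and 0.0856 (limma). With the embryo as a replicate block the count was again 5, and *F5* had an adjusted p of 0.0544 (limma). The minimum mean left out genes that were lost in culture. *Slc22a8* and *Slc13a4* averaged 15.3 and 14 in E14.5 control cortices and 16.8 and 11 in mutant cortices. Both were at 0 in all 12-hour libraries of either genotype. From 12 to 24 hours 0 of 18 were called by limma, edgeR or DESeq2 (1 at an unadjusted p under 0.05 in limma), where 0.292% of all genes were called. Of all 13359 genes, 1288 had an unadjusted p under 0.05 in limma.

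Relatives and partners of the 8 genes, such as lysophosphatidic acid receptors for *Enpp2*, folate carriers for *Folr1*, the retinol-binding protein receptor for *Ttr* and JAK-STAT components for *Prlr*, formed a list of 27 genes. The limma test called 0 of 18 in each of the E11.5, E14.5 and 12-hour genotype comparisons, with 2, 1 and 1 below an unadjusted p of 0.05. For the 24-hour cultures these numbers were 0 of 17 and 3. Of all genes, 0.0149% were called at E11.5, 0.0736% at E14.5 and 0% at 12 hours. At 24 hours 0.120% were called higher and 0.150% lower. In the same order, an unadjusted p under 0.05 was found in limma for 991 of 13406, 1236 of 13583, 650 of 13389 and 1414 of 13300 genes. With age, 11 of 18 were lower at E14.5 and 3 higher, where 29.3% and 23.8% of all genes were called. Of the lysophosphatidic acid receptors *Lpar6* (-1.16), *Lpar1* (-0.80), *Lpar4* (-0.77) and *Lpar2* (-0.47) were lower, as were *Otx1* (-1.24), the paralog of *Otx2*, the folate transporter *Slc46a1* (-0.66), *Fgf15* (-1.86), *Fgfr1* (-0.61), *Clic1* (-0.46), *Clic4* (-0.46) and *Stra6* (-0.56). *Socs2* (1.04), *Samd8* (0.77), which encodes a sphingomyelin synthase relative, and *Jak2* (0.71) were higher. From cortex to 12 hours 7 of 19 fell, among them *Stra6*, the receptor of the retinol-binding protein (-2.83, SE 0.453), *Lpar1* (-1.55) and *Lpar4* (-1.01), with *Slc46a1* (-1.43), *Stat5b* (-1.46), *Otx1* (-0.43) and *Socs2* (-0.31), and *Fgfr1* (0.83) and *Lpar6* (0.52) rose, where 16.1% of all genes were called lower and 14.1% higher. *Stra6* stood at 35.3 to 47.5 in the E14.5 cortices and at 0.896 to 10.6 at 12 hours. The age call of *Stra6* was lost in 12 of 20 alternatives, that of *Slc46a1* with all 24 libraries in one fit (adjusted p = 0.161, limma), and the culture calls of *Stat5b*, *Otx1* and *Slc46a1* were lost on leaving out any of 9, 9 and 3 of the 12 libraries.

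Genes of the neighbouring cortical hem were set beside these results. All 10 of the 14 hem genes that were tested had higher means in mutants at E11.5 and at E14.5, with a median log2 difference of 0.44 and 0.65 against 0.02 and 0.01 for all genes, and 0 were called at either age (limma, 4 and 5 at an unadjusted p under 0.05). Such a p was found for 991 of all 13406 genes at E11.5 and 1236 of 13583 at E14.5. *Bmp6* averaged 8.72 in controls and 14.9 in mutants at E14.5, so it reached the minimum mean there only through the mutants. Of the genes not tested, *Wnt3a*, *Wnt2b* and *Msx2* had lower means in mutants at both ages. *Gdf7* was lower in mutants at E11.5 and at 0 in both genotypes at E14.5. In the 12 cortices together *Rspo2*, a secreted activator of WNT signalling, was higher in mutants (log2 fold change 0.71, SE 0.122, adjusted p = 0.0247, limma), where 0.139% of all genes were called, at 344 to 424 in mutants and 247 to 261 in controls at E11.5 and at 89.2 to 144 and 57.3 to 73.2 at E14.5. In the 24-hour cultures *Rspo3* was lower in mutants (-0.92, SE 0.142, adjusted p = 0.015, limma), where 0.150% of all genes were called lower, at 537 to 645 against 944 to 1258, the opposite side from *Ttr*. The calls of hem genes, *Rspo2* and *Rspo3* among them, were not put through the alternatives, such as a term for sex or leaving out a library. In culture 7 of 8 hem genes tested had higher means in mutants at each time, *Rspo3* being the exception at both. At 12 hours *Lmx1a*, at 7.13 in controls and 19.7 in mutants, reached the minimum mean only through the mutants. The sum of the 14 genes was lower in every mutant, at 879 to 1048 against 1067 to 1571 at 12 hours. At 24 hours it was 902 to 1193 against 1205 to 1462. *Rspo3* averaged 564 in mutants and 1020 in controls at 12 hours, and 583 and 1104 at 24 hours. In the cortices the sum was higher in every mutant. With age 8 of 10 hem genes were lower at E14.5, beside 29.3% of all genes, and from cortex to 12 hours 6 of 9 fell, beside 16.1%, and 1 rose, beside 14.1%.

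Markers of other cells that a dissection or culture could hold were summed in each library. Liver also makes transthyretin, and albumin (*Alb*), its defining secreted protein, stood at 107, 57.9 and 206 in mutants 1, 2 and 6 and at 1.57, 296 and 379 in controls 3, 4 and 5 at 12 hours, which overlapped. At 24 hours *Alb* stood at 27.2, 36.4 and 59.4 in mutants and at 0, 1.69 and 0 in controls, and the sum of 11 liver genes ran from 88.9 to 308 in mutants and from 1.69 to 6.83 in controls, without overlap, as for *Ttr*. In the E14.5 cortices the sum was 6.62 to 14.7 in mutants and 10.6 to 823 in controls. Of 6 genes of the pigmented epithelium of the eye, which also expresses *Otx2*, *Rpe65* was at 0 in every culture, and the sum ran from 19.7 to 66.3 in mutants and 22.3 to 25.2 in controls at 12 hours and from 20.1 to 41.6 and 6.74 to 23.2 at 24 hours. The endothelial sum of 5 genes was higher in every mutant at 12 hours (70.5 to 102 against 24.3 to 50.3) and overlapped at 24 hours (11.3 to 93.1 against 19.1 to 38.8). The sum of 6 meningeal genes (232 to 290 against 147 to 184) and that of 6 diencephalic genes (682 to 1318 against 419 to 606) were higher in every mutant at 24 hours and overlapped at 12 hours (118 to 256 against 123 to 164, and 583 to 1288 against 441 to 813). The sum of 6 erythroid genes was 57506 to 87650 in mutants and 87483 to 125031 in controls at 12 hours, and 41948 to 66304 and 39915 to 62259 at 24 hours. Mutant 2 was the highest library for the diencephalic sum at both times, at 1288 and 1318, and also in the E14.5 cortex, at 2700 against 499 to 1101 in the other 5, and it was the highest of the mutants in culture for *Ttr*, *Otx2*, *Clic6*, *Sgms2* and *Sostdc1*. The 7 dorsal telencephalic genes summed to 4395 to 6036 in mutants and 4000 to 5822 in controls at 12 hours and to 3858 to 4774 and 3773 to 5170 at 24 hours. In the E11.5 cortices, where *Clic6* and *Otx2* were higher in every mutant, that sum was lower in every mutant (4240 to 5182 against 5347 to 6154) and the endothelial sum higher (1086 to 1218 against 945 to 1041). In the E14.5 cortices the dorsal telencephalic sum was 5244 to 6959 in mutants and 6435 to 7052 in controls, with mutants 1 and 2 below all controls. The part of these cells, and of the read depth that differed at 24 hours, in the differences of the choroid plexus genes was not tested.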

How the data were processed

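RNA of 24 libraries was sequenced from 3′ ends with oligo(dT) priming. The deposited values are a signal: reads per gene that the authors divided by 1 size factor per library. Before that, per the labels and the study's methods, adapters and poly(A) were removed, quality was checked (FastQC 0.11.7), reads were aligned to GRCm38 with TopHat2 2.0.10 (using SAMtools 0.1.19 and Bowtie 1.0.0), and counted by strand with HTSeq 0.6.1 on GENCODE annotation. DESeq2 was the study's test. Dividing by the smallest step of each library gave whole reads (tolerance 0.001), and these served edgeR 4.0.16 and DESeq2 1.42.0 as alternatives in the E14.5 and culture sets. Those tools were not run with E11.5, since 1 read of control D is worth 1.01, too near 1 for whole reads to be claimed as recovered. The same limit holds for the 24-hour culture of mutant 2, also at 1.01, although the tools were run there. There were 0 columns of samples outside the series. Gene positions came from a later GENCODE release on the same build than the one used for counting, and start windows from RefSeq.

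The main test was limma 3.58.1 (R 4.3.3) with an intensity trend on log2(normalized reads + 1), restricted to genes whose mean over the compared libraries reached 10; p-values were adjusted by Benjamini-Hochberg over all of those genes, with a threshold of 0.05. Fold changes on this scale understate those of low genes. The fit was tested on simulated data. Genotypes were compared within each set, and ages and culture steps with genotype as a term; the interaction was added after seeing the data. Cultures and cortices carry the same embryo numbers, so embryos pair by the labels; the correlation of same-embryo deviations between cortex and 12 hours was -0.111 to 0.158, and between 12 and 24 hours -0.0384 to 0.174. The 8 genes and the lists were chosen with earlier results of these data known. Named genes were the 8, the genes of the lists that passed (at most 10 by p in a comparison), and the 10 genes most correlated with the score; genes outside this rule (*Col8a1* and *1500015O10Rik* by genotype, those named as not overlapping, and the hem genes) were chosen after their values were seen. Alternatives were other pseudocounts, scalings, filters and tools, a term for sex, all 24 libraries in one fit, the replicate block, the title prefix as a block, and each library left out. Of the list of 32 other choroid plexus genes, 1 is counted in the totals but not reported here by name or plotted.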

Additional observations from a re-analysis of the deposited data

Results flagged for a closer look

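The course of *Ttr* from the E14.5 cortex to 12 hours in culture was opposite in the genotypes: it was higher in culture in all 3 mutants (mean 1.44 on the log2 scale) and lower in all 3 controls (mean -1.17), a difference of 2.61. Without mutant 6, whose cortex has conflicting age labels and whose step was the largest (2.72), the *Ttr* difference was 1.97, and without mutant 1 it was 3.22. The difference was not tested, because *Ttr* was chosen from these data.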

How the results depend on the processing

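The mean log2 difference over the 8 genes was 1.526 at 12 hours and 1.611 at 24 hours and ranged from 1.322 to 1.769 and from 1.212 to 1.839 with 1 library left out. At E11.5 it was 0.2206 (0.02589 to 0.4111) and at E14.5 0.09753 (-0.1254 to 0.4872), or -0.6818 with a term for sex. From cortex to 12 hours it was -0.4228, with the replicate block -0.4228, and 0.07375 after quantile normalization; from 12 to 24 hours it was -0.06285 with the replicate block. Of the other choroid plexus genes, 0 were called by genotype at 12 hours, and 1 with no filter, with all 24 libraries in one fit or with DESeq2. At 24 hours 1 was called, 0 with a pseudocount of 0.1, quantile normalization or a term for sex, 3 at an adjusted p under 0.1, 5 with no filter or with DESeq2, and 0 to 2 with 1 library left out (0 without mutant 6, control 3 or control 5, 2 without control 4). With age 12 were called, 20 with no filter and 5 at a mean of at least 50. From cortex to 12 hours 5 were called, 3 at a mean of at least 50, 8 at an adjusted p under 0.1 or with all 24 libraries, and 3 to 6 with 1 library left out (3 without the cortex of mutant 1, mutant 2, control 3 or control 4, or the 12-hour culture of mutant 6). The interaction called 0, and 1 with DESeq2 or without control 5 (0 to 1 with 1 embryo left out); its mean over the 8 genes was 1.429 with or without the replicate block, and 1.16 without mutant 6, and without the block it called 0. The replicate block changed no count of calls; of single named genes, it ended the call of *F5* from cortex to 12 hours. The cause of these changes was not tested. For the named genes of the choroid plexus and partner lists that passed, 775 values under alternatives stayed past the threshold, 71 lost it and none changed sign. The alternative of an adjusted p under 0.1 cannot end a call, so the 775 and the numbers of alternatives per gene include values fixed in advance. Differences of the 8 genes did change sign, among them genotype at E14.5 for *Ttr*, *Folr1*, *Clic6* and *Otx2* and the step from cortex to 12 hours for *Ttr* (0.14, or -0.49 without the cortex of mutant 6); at 12 and 24 hours the genotype differences of the 6 detected genes kept their sign. With 3 embryos a group and 1 sex among the E14.5 controls, sex and genotype can be separated only through mutant 6. Values below about 10 normalized reads, as for *Kl* and *Prlr*, are limited by depth.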
